A study of Mus musculus with 19 samples.

Results

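The 7 formyl peptide receptor genes of the mouse, Fpr1, Fpr2, Fpr3, Fpr-rs3, Fpr-rs4, Fpr-rs6 and Fpr-rs7, were followed by name among the 35596 genes measured in mRNA-seq libraries of the whole vomeronasal organ (VNO). The VNO is the paired tubular organ of the nasal septum that detects pheromones, and its vomeronasal sensory neurons (VSNs) form an apical and a basal layer. All mice were females at postnatal day 21. There were 18 libraries in 6 groups of 3, all described as biological replicates. In the AP-2εCre line, Cre is carried by the Tfap2e gene and removes Smad4 from immature basal VSNs. This line gave Smad4 flox/flox controls (flox, without Cre), AP-2εCre+/- controls (het, with Cre and without the floxed Smad4 pair) and AP-2εCre+/- Smad4 flox/flox conditional knockouts (cKO). In the OMPCre line, Cre is carried by the Omp gene and removes Smad4 from mature VSNs of both layers, and the flox, het and cKO groups have the corresponding genotypes. The labels call the flox groups wild type, and the genotype used here is that of the study's design. Smad4 is the mediator shared by TGFβ and BMP signaling, and in neither line is it removed from the other cells of the organ. As cell type the labels name the VSNs in which Cre acts in each line, but the RNA was that of the whole organ. One further library carries labels of both a het and a cKO and entered no comparison between groups, except in an alternative fit that added it to the AP-2εCre hets.

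Formyl peptide receptors are G protein-coupled receptors of the cell surface. Bacteria and mitochondria begin their proteins with N-formylmethionine, and Fpr1 and Fpr2 guide neutrophils and other phagocytes towards peptides that carry it. In rodents the family has expanded, and Fpr3, Fpr-rs3, Fpr-rs4, Fpr-rs6 and Fpr-rs7 are known as receptors of VSNs. Fpr3 is known from basal neurons that use the G protein subunit Gαo (Gnao1), and the other 4 from apical neurons that use Gαi2 (Gnai2). Each such neuron carries a single kind of receptor, so that each receptor marks a small share of the cells.

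All 7 genes lie on chromosome 17 of GRCm38, between positions 17876471 and 20624877, in 2 clusters that are 2090.5 kb apart. The first cluster holds Fpr1 (ENSMUSG00000045551.7, 17876471 to 17883940, minus strand), Fpr2 (ENSMUSG00000052270.7, 17887824 to 17893952, plus strand), Fpr3 (ENSMUSG00000079700.7, 17887852 to 17971677, plus strand) and Fpr-rs4 (ENSMUSG00000048062.4, 18021733 to 18022704, plus strand). The second holds Fpr-rs7 (ENSMUSG00000071276.1, 20113210 to 20114226), Fpr-rs6 (ENSMUSG00000071275.1, 20182078 to 20183097) and Fpr-rs3 (ENSMUSG00000060701.1, 20623846 to 20624877), all on the minus strand. The 4 apical receptors are annotated as 1 exon without untranslated regions. For Fpr3 the annotation has 2 transcripts, and the reads of all 18 libraries were assigned to the 1-exon transcript, with an estimated count of 0 for the spliced one that begins within Fpr2.

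The members resemble each other, which decides how far 75-base reads can tell them apart. For each gene a stretch of 75 coding bases within 1 exon, the length of 1 read, is shown 5′ to 3′ from the same aligned place of the coding sequence in GRCm38. Capitals mark the bases that differ from Fpr-rs6.
Fpr-rs6: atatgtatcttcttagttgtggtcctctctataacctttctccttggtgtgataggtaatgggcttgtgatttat
Fpr-rs7: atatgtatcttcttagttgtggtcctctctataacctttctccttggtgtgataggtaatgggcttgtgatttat
Fpr-rs3: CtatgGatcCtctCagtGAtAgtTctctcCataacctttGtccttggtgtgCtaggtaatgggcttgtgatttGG
Fpr-rs4: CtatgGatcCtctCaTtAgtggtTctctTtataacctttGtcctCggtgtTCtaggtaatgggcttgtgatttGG
Fpr2: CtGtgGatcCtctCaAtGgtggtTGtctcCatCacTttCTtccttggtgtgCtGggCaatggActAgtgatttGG
Fpr3: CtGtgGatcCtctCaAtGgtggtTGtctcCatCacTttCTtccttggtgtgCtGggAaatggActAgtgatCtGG
Fpr1: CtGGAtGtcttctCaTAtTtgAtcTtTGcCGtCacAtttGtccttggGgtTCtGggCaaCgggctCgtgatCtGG
These stretches lie at chr17:20182951-20183025 (Fpr-rs6), chr17:20114080-20114154 (Fpr-rs7), chr17:20624731-20624805 (Fpr-rs3), chr17:18021805-18021879 (Fpr-rs4), chr17:17892816-17892890 (Fpr2), chr17:17970541-17970615 (Fpr3) and chr17:17877555-17877629 (Fpr1). The stretches of Fpr-rs6 and Fpr-rs7 are the same in all 75 bases, those of Fpr-rs3 and Fpr-rs4 differ from them in 13 and 14 bases, and that of Fpr1 in 28.

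Over the whole coding sequence, Fpr-rs6 and Fpr-rs7 were 96.7% identical, with 127 bases in a row the same, and 115 stretches of 75 bases occur in both. Fpr2 and Fpr3, the immune receptor and its vomeronasal neighbour, were 88.2% identical and shared 20 such stretches. Fpr-rs3 and Fpr-rs4 were 86.1% identical, Fpr-rs3 and Fpr-rs6 83.1%, and Fpr1 was 63.3% to 68.8% identical to the other members. Fpr2 also shares 259 stretches with the processed pseudogene Gm5966 on the same chromosome (17920269 to 17921312, plus strand), which had an estimated count of 0 in all 18 libraries. The estimated counts show the same split. Those of Fpr1, Fpr-rs3 and Fpr-rs4 were whole numbers in 18 of 18 libraries (within 0.005), whereas those of Fpr-rs6 and Fpr-rs7 were whole in 1 of 18 each and their sum was whole in 18 of 18. Reads shared by Fpr-rs6 and Fpr-rs7 had thus been divided between them, and the level of each is uncertain beside the level of their sum. Some reads were likewise divided between Fpr2 and Fpr3, whole in 7 of 18 libraries each and in 18 of 18 as a sum. Fpr3 shares 1.75% of its stretches of 75 bases with other genes, against 12.2% for Fpr-rs6.

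The libraries held 43385516 to 134042284 estimated counts (median 63096714), and the deepest was an AP-2εCre cKO library (cKO 2). Values below are CPM, counts per 1000000 scaled by the TMM method of edgeR, except where TPM, the deposited measure that also divides by transcript length, is named. Smad4 itself had 33.8 to 66.5 CPM in AP-2εCre cKO libraries against 39.6 to 81.0 CPM in the 6 controls of the line, and these ranges overlapped. In the OMPCre line Smad4 had 54.4 to 62.4 CPM in cKO libraries against 64.6 to 83.8 CPM in controls, without overlap. The paper describes loxP sites around an exon of Smad4, and in the AP-2εCre line it checked the loss with a probe for that exon and an antibody. Counts summed over the whole gene do not measure the loss of that exon. The tissue was checked by markers of VSNs, and all were present in the 12 controls of both lines. Trpc2, the ion channel of VSN transduction, had 108 ± 23.4 CPM (SD, n = 12), Gnai2 364 ± 25.8 CPM, Gnao1 210 ± 31.3 CPM and Omp, a protein of mature sensory neurons, 365 ± 96.4 CPM. The mean of Omp includes the OMPCre hets, in which this gene carries the Cre.

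The 7 receptors were transcripts of low abundance, and one of them dominated. Over the 12 controls, Fpr-rs3 had a mean of 6.06 TPM (SD 1.20), Fpr3 3.17 TPM (SD 1.34), Fpr2 1.29 TPM (SD 0.808), Fpr-rs6 1.08 TPM (SD 0.367), Fpr-rs4 1.05 TPM (SD 0.271), Fpr1 0.672 TPM (SD 0.355) and Fpr-rs7 0.565 TPM (SD 0.319). Fpr-rs3 thus made up 39.7% to 52.4% of the summed TPM of the 7 genes, and Fpr3 10.8% to 30.5%. In these controls the levels rest on 249 to 431 counts per library for Fpr-rs3 and 103 to 331 for Fpr3, but on 10 to 95 for Fpr1 and 9 to 83 for Fpr-rs7.

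Neighbours in this order were compared by flipping the signs of the differences between libraries (exact permutation, two-sided) on log2(TPM + 0.01) over the 12 controls. Fpr-rs3 was above Fpr3 in 12 of 12 libraries, by a mean of 1.04 on the log2 scale (SD 0.56; exact p = 0.00049, the smallest that 12 libraries allow, Benjamini-Hochberg adjusted p = 0.0029 over 6 pairs). Fpr3 was above Fpr2 in 10 of 12, by 1.42 (SD 1.24; exact test, adjusted p = 0.012), and Fpr-rs4 above Fpr1 in 10 of 12, by 0.80 (SD 1.02; exact test, adjusted p = 0.013). Fpr2 and Fpr-rs6 (exact p = 0.83), Fpr-rs6 and Fpr-rs4 (exact p = 0.95), and Fpr1 and Fpr-rs7 (exact p = 0.37) did not differ beyond their spread. Thus 3 of 6 neighbouring pairs differed. In the 6 flox controls alone the mean differences were 0.65 for Fpr-rs3 over Fpr3, 1.60 for Fpr3 over Fpr2 and 0.47 for Fpr-rs4 over Fpr1 (exact test, adjusted p = 0.094, 0.094 and 0.19).

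**Figure D1:**
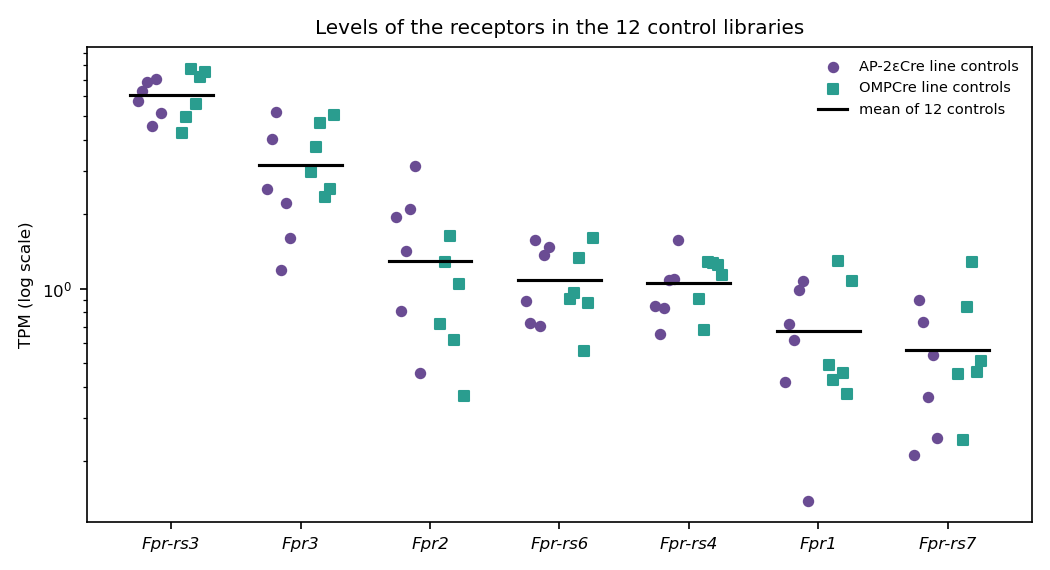
TPM of each receptor (log scale) in the 12 control libraries, with circles for the AP-2εCre line, squares for the OMPCre line and a bar for the mean of all 12. Fpr-rs3 (mean 6.06 TPM) lies above Fpr3 (mean 3.17 TPM) and above the other 5, whose means lie between 0.565 and 1.29 TPM.

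Smad4 loss in immature basal VSNs was examined first in the apical receptors. Fpr-rs3 had 8.86, 7.37 and 9.34 CPM in the 3 AP-2εCre cKO libraries, 6.49, 6.51 and 5.76 CPM in flox controls, and 4.93, 6.46 and 4.75 CPM in hets. All 3 cKO libraries were thus above all 6 controls (8.52 ± 1.03 against 5.81 ± 0.810 CPM), and a two-sided exact permutation over libraries gave p = 0.012, the lowest value this design can reach. Of all 18495 genes tested, 2.21% were higher in cKO libraries without overlap, and of the 7 members 1 was. The log2 fold change was 0.55 (SE 0.15), and edgeR's quasi-likelihood test gave a Benjamini-Hochberg adjusted p of 0.308 over all genes. Fpr-rs3 therefore did not pass the threshold of 0.05, and the adjusted p was 0.066 to 0.499 over 10 alternative settings, the lowest by DESeq2. Its log2 fold change was 0.44 to 0.67 under those settings, and it was 0.49 to 0.65 when single libraries were left out. The animals' names form 2 series, and in both the cKO libraries were higher, with 8.86 CPM against 5.76 and 4.75 CPM in one and 7.37 and 9.34 CPM against 4.93 to 6.51 CPM in the other. In RNA of a whole organ, more cells that carry a receptor and more of its RNA per cell cannot be told apart, and the same holds for a lower level.

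The apical markers Gnai2, Meis2 and Nrp2 had a summed level of 972 to 1014 CPM in AP-2εCre cKO libraries against 751 to 905 CPM in the 6 controls, again without overlap, and their part in the level of Fpr-rs3 was not tested. Gnai2 had a log2 fold change of 0.28 (SE 0.10, edgeR adjusted p = 0.367). Per 1000 CPM of Gnai2, Fpr-rs3 stood at 19.2 ± 2.17 CPM in cKO libraries, and controls at 15.9 ± 1.75 CPM (SD, n = 3 and 6), and these ranges, 16.9 to 21.2 and 13.2 to 18.1, overlapped.

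Fpr-rs6 had 1.978, 1.114 and 1.995 CPM in AP-2εCre cKO libraries, 0.991, 0.733 and 1.30 CPM in flox controls, and 0.754, 1.23 and 1.34 CPM in hets. cKO 1 and cKO 3 were above all controls and cKO 2 was among them, with a log2 fold change of 0.68 (SE 0.32, edgeR adjusted p = 0.512, two-sided exact permutation p = 0.060). Summed with Fpr-rs7, which removes the uncertain division of reads, the log2 fold change was 0.56 (SE 0.28, edgeR adjusted p = 0.539). Fpr-rs7 alone ranged from 0.328 to 0.726 CPM in cKO libraries and from 0.229 to 0.910 CPM in controls. Fpr-rs4 had 0.850, 0.614 and 0.807 CPM in cKO libraries, where controls ranged from 0.622 to 1.34 CPM, with a log2 fold change of -0.28 (SE 0.35, edgeR adjusted p = 0.857) that turned to 0.068 against flox controls alone. Unlike Fpr-rs3, these 3 receptors overlapped between cKO and control libraries.

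**Figure D2:**
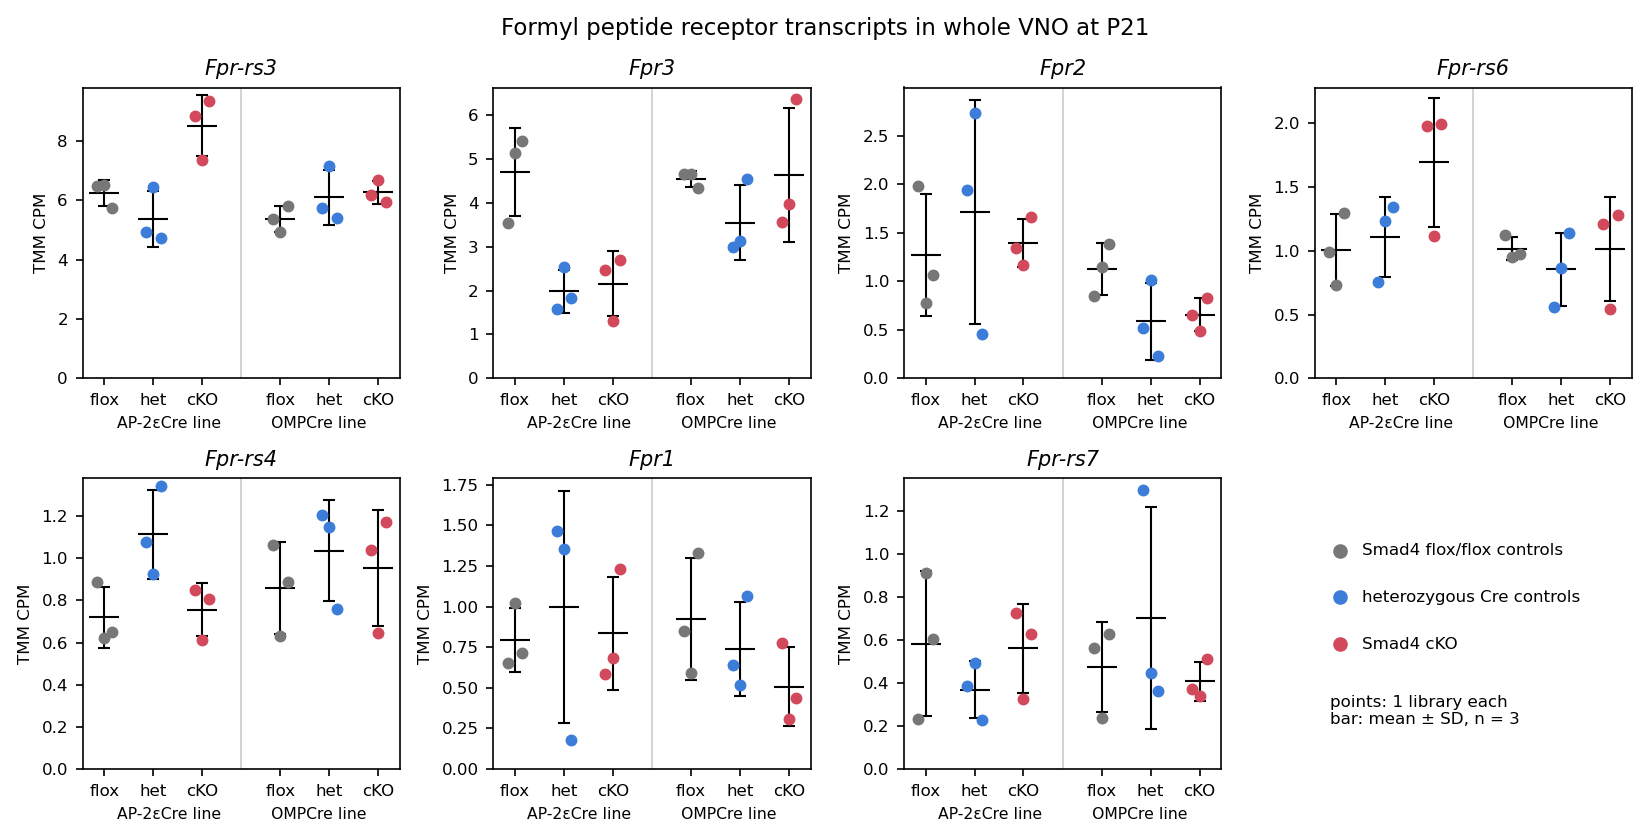
TMM CPM of each receptor by group, with 1 point per library and the mean ± SD of 3 libraries, for the AP-2εCre line on the left of each panel and the OMPCre line on the right. Fpr-rs3 in AP-2εCre cKO libraries (7.37 to 9.34 CPM) lies above all controls of the line, and Fpr3 in AP-2εCre flox controls (3.55 to 5.41 CPM) lies above all libraries of that line that carry Cre.

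Fpr3, the receptor of basal VSNs, was compared between the 2 kinds of control of the AP-2εCre line. It had 3.55, 5.13 and 5.41 CPM in flox controls and 1.59, 2.53 and 1.84 CPM in hets, and the groups did not overlap. In this comparison 2 of 7 members did not overlap, Fpr3 (lower in hets) and Fpr-rs4 (higher in hets), against 5.03% of 17827 genes that were lower in hets without overlap and 4.84% that were higher. The means of Fpr3 were 1.98 ± 0.488 and 4.70 ± 1.01 CPM (SD, n = 3 each), and the two-sided exact permutation p was 0.10, the lowest that this design can reach. The log2 fold change was -1.24 (SE 0.29), with an adjusted p of 0.502 in edgeR. DESeq2 gave -1.25 (SE 0.32) with an adjusted p of 0.013, so the call depended on the tool. When single libraries were left out the edgeR value was -1.46 (without het 2) to -1.10 (without het 1), with an adjusted p of 0.266 to 0.911.

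The AP-2εCre cKO libraries, at 2.47, 1.31 and 2.68 CPM of Fpr3, lay with the hets. All 6 libraries of the line that carry Cre had 1.31 to 2.68 CPM, below the 3.55 to 5.41 CPM of the 3 without Cre. This grouping was noticed in the values and was given no test. Against the 6 controls together the cKO log2 fold change was -0.63 (SE 0.44, edgeR adjusted p = 0.690). It was -1.13 (SE 0.33, edgeR adjusted p = 0.394) against flox controls alone and 0.12 (SE 0.37, edgeR adjusted p = 0.951) against hets alone, so its direction turned with the kind of control. Fpr-rs4 in the same line had 0.886, 0.622 and 0.649 CPM in flox controls and 1.08, 0.925 and 1.34 CPM in hets, with a log2 fold change of 0.63 (SE 0.38, edgeR adjusted p = 0.991).

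The markers of basal VSNs were measured beside Fpr3. The 10 listed ones, Gnao1, Tfap2e, Robo2 and Vmn2r1 to Vmn2r7 of the V2R receptor family of basal VSNs, had a summed level of 921 to 1106 CPM in AP-2εCre flox controls, 457, 866 and 829 CPM in het 1, het 2 and het 3, and 585 to 775 CPM in cKO libraries. Het 1 stood apart, also with 50.1 CPM of Trpc2 against 102 and 130 CPM in the other hets and with 2583 CPM of 12 genes of VSN transduction against 3264 and 3093 CPM. In hets 0 of 10 passed the adjusted threshold and 4 of 10 were lower at an unadjusted p under 0.05 (2.52% of all genes), with a median log2 fold change of -0.52 against 0.0058 over all genes. Without het 1, a step added after the values were seen, 3 of 10 were lower (2.11% of all genes) and the median was -0.24. In cKO libraries against the 6 controls 0 of 10 passed the adjusted threshold and 5 of 10 were lower at an unadjusted p under 0.05 (6.04% of all genes), with a median of -0.45. Tfap2e, which carries the Cre in this line, had 15.4 CPM in flox controls, 7.499 CPM in hets and 11.2 CPM in cKO libraries (means, n = 3 each). Per 1000 CPM of Gnao1, Fpr3 had 14.5 to 24.95 CPM in flox controls, 9.85 to 13.2 CPM in hets and 7.13 to 14.1 CPM in cKO libraries, so that flox controls did not overlap with the other 2 groups. In the OMPCre line 2 hets, at 12.1 and 14.01 CPM, lay within the range of the AP-2εCre libraries that carry Cre, and the third had 22.02 CPM. Per 1000 CPM of Tfap2e the flox and het ranges overlapped, at 229 to 366 and 207 to 309 CPM, and the cKO libraries had 131 to 220 CPM. Because Tfap2e carries the Cre in hets and cKO libraries, its own level differs by genotype, and this ratio is no measure of basal cells alone. The part of these markers in the level of Fpr3 was not tested.

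**Figure D3:**
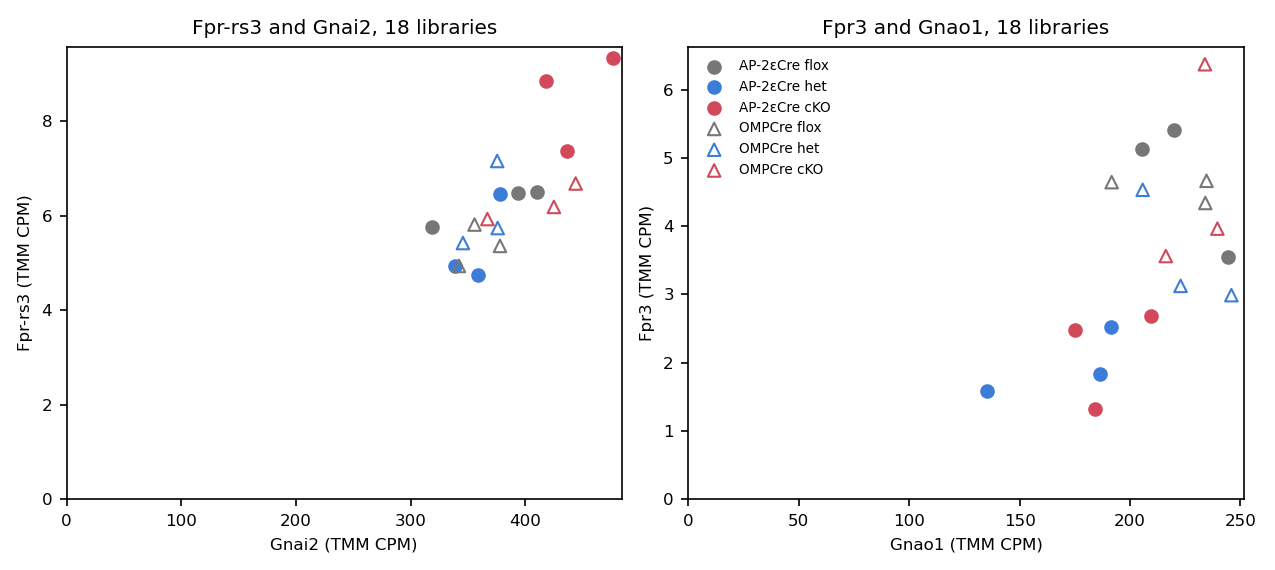
TMM CPM of Fpr-rs3 against Gnai2 (left) and of Fpr3 against Gnao1 (right), 1 point per library for the 18 libraries, with filled circles for the AP-2εCre line and open triangles for the OMPCre line. Fpr-rs3 per 1000 CPM of Gnai2 overlaps between AP-2εCre cKO libraries (16.9 to 21.2) and controls (13.2 to 18.1), whereas the AP-2εCre libraries with Cre have at most 14.1 CPM of Fpr3 per 1000 CPM of Gnao1 and those without Cre at least 14.5, with 2 OMPCre hets at 12.1 and 14.01.

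After Smad4 loss in mature VSNs of both layers, the vomeronasal receptors of OMPCre cKO libraries overlapped with their controls. Fpr-rs3 had 6.19, 6.68 and 5.93 CPM in cKO libraries, 5.36, 4.94 and 5.81 CPM in flox controls, and 5.74, 7.16 and 5.42 CPM in hets. Its log2 fold change was 0.13 (SE 0.14, edgeR adjusted p = 1.00). Fpr3 had 3.56, 3.96 and 6.37 CPM in cKO libraries, 4.66, 4.64 and 4.34 CPM in flox controls, and 2.99, 3.12 and 4.53 CPM in hets, with a log2 fold change of 0.19 (SE 0.24, edgeR adjusted p = 1.00). A single library, cKO 3, was above all controls for Fpr3. Fpr-rs4, Fpr-rs6 and Fpr-rs7 had log2 fold changes of 0.0053 (SE 0.33), 0.11 (SE 0.36) and -0.53 (SE 0.54). Of the 7 members 0 were without overlap in this comparison, against 2.34% of 18623 genes. The apical markers summed to 935 to 983 CPM in these cKO libraries against 806 to 896 CPM in controls, without overlap, as in the AP-2εCre line.

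In OMPCre hets against flox controls, Fpr3 had a log2 fold change of -0.36 (SE 0.22, edgeR adjusted p = 0.902) and Fpr-rs3 0.18 (SE 0.18, edgeR adjusted p = 0.961). Fpr2 had 0.588 ± 0.395 CPM in hets and 1.13 ± 0.268 CPM in flox controls (SD, n = 3 each, two-sided exact permutation p = 0.20). Its log2 fold change was -1.11 to -0.82 over 6 alternative settings. Again 0 of 7 members were without overlap, against 11.6% of 18124 genes. One het library (het 1) had 1.30 CPM of Fpr-rs7, above the 0.238 to 0.628 CPM of the other OMPCre controls, and 0.563 CPM of Fpr-rs6, below the 0.864 to 1.14 CPM of the others. The sum of both receptors was 1.86 CPM in that library and 1.19 to 1.69 CPM in the other OMPCre controls.

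Over all 6 comparisons, 0 of the 7 members passed edgeR's adjusted threshold, and all 7 passed the filter on low counts in each. For AP-2εCre cKO against controls the share of all genes called was 0.0378%, with 1 of 7 members at an unadjusted p under 0.05 (10.2% of all genes) and 0 called by DESeq2 (1.67% of all genes). For OMPCre cKO it was 0%, with 0 of 7 members unadjusted (3.95% of all genes) and 0 by DESeq2 (0.228%). For AP-2εCre hets it was 0.0224%, with 1 of 7 unadjusted (5.18%) and 1 by DESeq2, which was Fpr3, where DESeq2 called 0.944% of all genes. For OMPCre hets it was 0.0441%, with 0 of 7 unadjusted (5.54%) and 0 by DESeq2 (0.883%). An interaction term compared the effect of Smad4 loss in one line with that in the other, where 0% of 19465 genes were called, with 1 of 7 members unadjusted (4.91%) and 0 by DESeq2 (0.0828%). That member was Fpr-rs3, whose cKO effect was larger in the AP-2εCre line by 0.42 on the log2 scale (SE 0.20, edgeR adjusted p = 1.00). For Fpr3 the difference was -0.82 (SE 0.52, edgeR adjusted p = 1.00).

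The controls of the 2 lines were also compared. Of each 6, the 3 hets carry the Cre allele of their line and the 3 flox controls carry none. Fpr-rs3 had 5.81 ± 0.810 CPM in AP-2εCre line controls and 5.74 ± 0.763 CPM in OMPCre line controls (SD, n = 6 each), with a log2 fold change of 0.013 (SE 0.13, edgeR adjusted p = 0.994). Fpr2 had the largest difference of the members, 0.79 (SE 0.48, edgeR adjusted p = 0.825), with 1.49 ± 0.864 and 0.858 ± 0.423 CPM. Of the members 0 of 7 were called (0.0949% of 17912 genes), 0 had an unadjusted p under 0.05 (6.57% of all genes), 0 were called by DESeq2 (0.545% of all genes) and 0 were without overlap (0.497% of all genes).

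**Figure D4:**
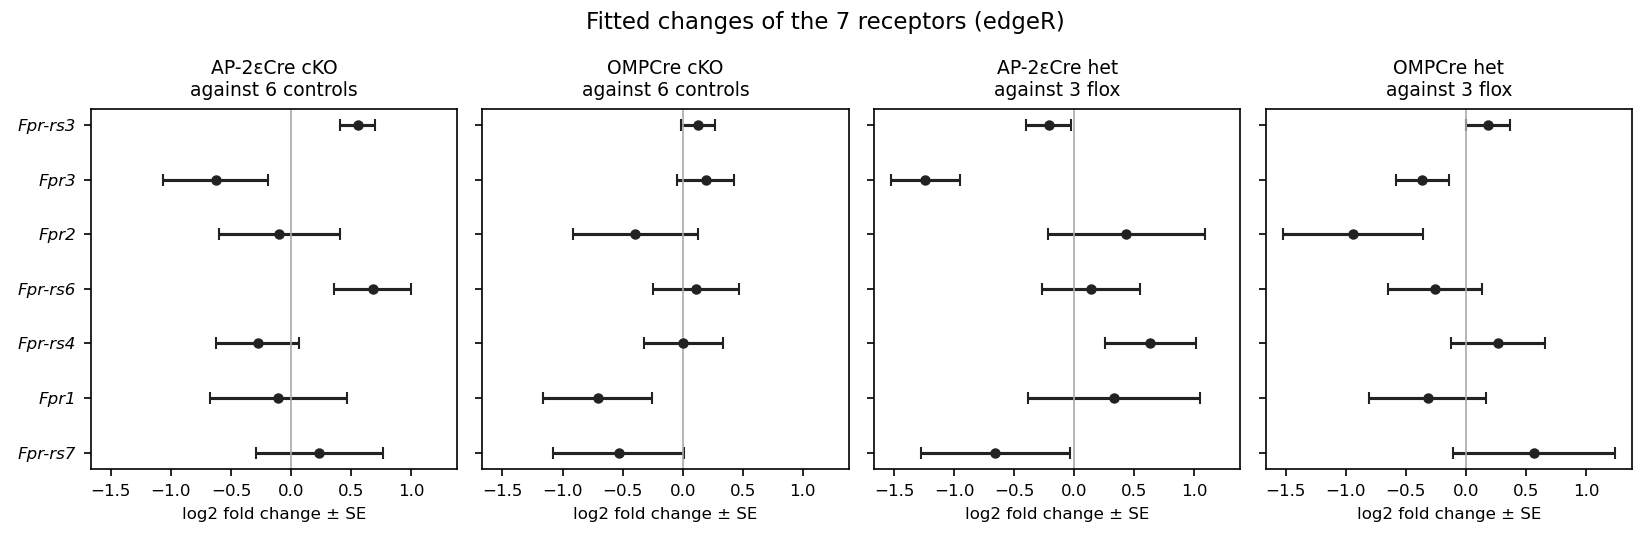
Log2 fold change ± SE of each receptor from edgeR in 4 comparisons, cKO against 6 controls and het against 3 flox controls in each line, with a grey line at 0. In AP-2εCre cKO libraries Fpr-rs3 has a log2 fold change of 0.55 (SE 0.15), and in AP-2εCre hets Fpr3 has -1.24 (SE 0.29). Over the 4 comparisons the SE is 0.14 to 0.19 for Fpr-rs3 and 0.45 to 0.71 for Fpr1.

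The immune receptors Fpr1 and Fpr2 varied widely within groups. In AP-2εCre hets Fpr1 had 1.46, 1.36 and 0.176 CPM, and Fpr2 1.94, 2.73 and 0.459 CPM, so that het 3 was low and the other hets were high in both. Fpr1 had 0.587 to 1.23 CPM in AP-2εCre cKO libraries and 0.652 to 1.02 CPM in flox controls, and Fpr2 1.17 to 1.66 CPM and 0.777 to 1.98 CPM. The cKO log2 fold changes were -0.11 (SE 0.57) for Fpr1 and -0.10 (SE 0.50) for Fpr2, with edgeR adjusted p-values of 0.974 for both, and against flox controls alone they turned to 0.061 and 0.125. In the OMPCre line Fpr1 ranged from 0.306 to 0.777 CPM in cKO libraries and from 0.515 to 1.33 CPM in controls (log2 fold change -0.71, SE 0.45, edgeR adjusted p = 1.00). Fpr2 had 0.483 to 0.824 CPM there and 0.234 to 1.38 CPM in controls (-0.39, SE 0.52, edgeR adjusted p = 1.00).

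Neutrophil markers were measured beside them. Ltf, which encodes lactoferrin, is also a product of glands, and with 3580 to 6000 CPM it made up most of the sum of the 14 listed genes, so the other 13, which include S100a8, S100a9 and Mpo, were summed without it. This step was chosen after the values were seen. Of the AP-2εCre hets, het 3 had 388 CPM of these 13 markers, het 1 575 CPM and het 2 800 CPM, and Fpr1 and Fpr2 summed to 0.635, 3.40 and 4.08 CPM in the same order of libraries. The flox controls of that line ran the other way, with 478, 503 and 574 CPM of the markers and 2.63, 1.80 and 1.77 CPM of Fpr1 plus Fpr2. In OMPCre flox controls the library with the lowest markers, at 484 CPM, had the highest sum, at 2.71 CPM, while the OMPCre hets had 429, 569 and 571 CPM of the markers with 1.16, 1.30 and 1.53 CPM of Fpr1 plus Fpr2. In AP-2εCre cKO libraries the 13 markers had 558 to 932 CPM against 388 to 800 CPM in controls. Of all 14, with Ltf, 13 had a log2 fold change above 0 (median 0.43, 0 called). Of these 14, 1 was higher at an unadjusted p under 0.05 (4.18% of all genes). In OMPCre cKO libraries the 13 markers had 352 to 481 CPM against 429 to 571 CPM in controls. Of all 14, 0 were above 0 (median -0.48, 0 called), and 2 were lower at an unadjusted p under 0.05 (3.95% of all genes in either direction). No defining neutrophil marker was at 0 in any group. The 11 macrophage markers, which include C1qa and Csf1r, summed to 282 to 286 CPM in AP-2εCre cKO libraries and 230 to 288 CPM in controls. Their range was 247 to 279 CPM in OMPCre cKO libraries and 221 to 287 CPM in the controls of that line. The part of these cells in the levels of Fpr1 and Fpr2 was not tested.

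**Figure D5:**
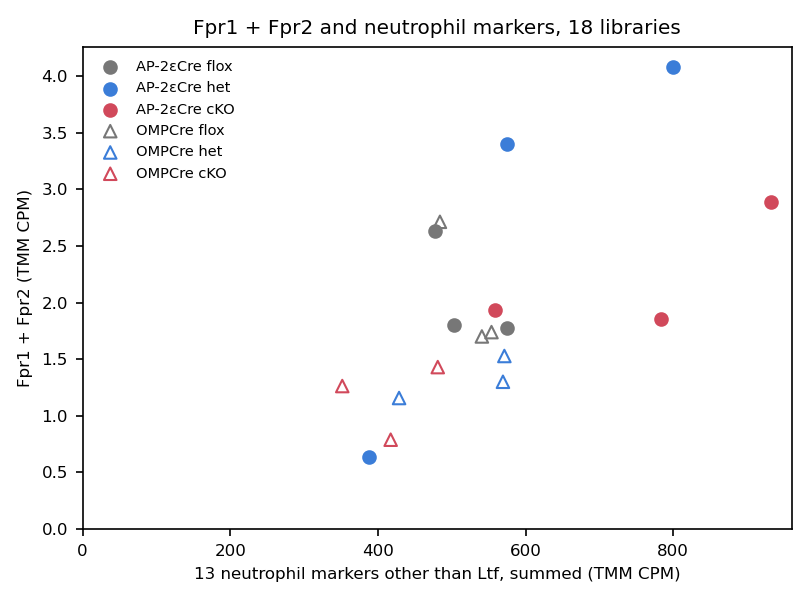
Fpr1 plus Fpr2 (TMM CPM) against the summed TMM CPM of 13 neutrophil markers other than Ltf, 1 point per library for the 18 libraries, with filled circles for the AP-2εCre line and open triangles for the OMPCre line. The 2 AP-2εCre hets with the highest Fpr1 plus Fpr2 (3.40 and 4.08 CPM) have 575 and 800 CPM of the markers, and the lowest library (0.635 CPM), also an AP-2εCre het, has 388 CPM, but an AP-2εCre cKO library with 784 CPM of the markers has 1.86 CPM, and the AP-2εCre flox controls run the other way.

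Genes for known ligands of formyl peptide receptors were also transcribed in the organ. Anxa1, whose product annexin A1 acts on Fpr2, had 277 ± 89.3 CPM (SD, n = 12) in controls of both lines. It had 199 CPM in AP-2εCre cKO libraries, 239 CPM in flox controls and 304 CPM in hets (means, n = 3 each), with a log2 fold change of -0.44 (SE 0.17, edgeR adjusted p = 0.407). Camp, the precursor of the cathelicidin peptide and also a listed neutrophil marker, had 12.8 CPM in controls, and the serum amyloid genes Saa1 and Saa2, whose products also act on Fpr2, at most 0.112 CPM in any library of the 6 groups. Of the 9 listed ligand genes 7 passed the filter and 0 were called in either cKO comparison. In AP-2εCre cKO libraries 1 of the 7 was higher (4.18% of all genes) and 1 was lower (6.04%) at an unadjusted p under 0.05. Plaur, also a listed ligand gene, had 6.35 ± 0.851 CPM in these cKO libraries and 3.97 ± 0.995 CPM in the controls of the line (SD, n = 3 and 6). The 13 proteins that mitochondria make with N-formylmethionine had summed transcript levels of 34429 to 54816 CPM in AP-2εCre cKO libraries and 45663 to 73327 CPM in controls. Their median log2 fold change was -0.25 in AP-2εCre cKO and 0.21 in OMPCre cKO, with 0 of 13 called and 0 of 13 at an unadjusted p under 0.05 in both. Of 12 listed genes of VSN transduction, such as Trpc2, Gng8 and Ano1, 0 were called in either cKO, with median log2 fold changes of 0.19 and -0.011. In AP-2εCre cKO libraries 2 of the 12 were higher (4.18% of all genes) and 1 was lower (6.04%) at an unadjusted p under 0.05. The higher ones were the G protein subunits Gnai2 (log2 fold change 0.28, SE 0.095, edgeR adjusted p = 0.367) and Gng2 (0.26, SE 0.11, edgeR adjusted p = 0.455). The lower one was Ano1, a calcium-activated chloride channel, with 95.1 to 127 CPM in cKO libraries and 132 to 184 CPM in controls (log2 fold change -0.41, SE 0.12, edgeR adjusted p = 0.317). In OMPCre cKO libraries 1 was higher and 0 were lower, and the higher one was again Gnai2 (0.19, SE 0.080, edgeR adjusted p = 1.00).

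Within 500 kb of the stretch that holds the members lie 39 protein-coding genes, 22 of the V2R family of basal VSNs and 10 of the V1R family (Vmn1r genes) of apical VSNs. Of the 39, 38 passed the filter in each comparison of 2 groups and 0 were called. In AP-2εCre hets 13 of the 22 V2R neighbours were lower at an unadjusted p under 0.05 (2.52% of all genes), with a median log2 fold change of -0.69 (11 of 22 and -0.52 without het 1), and of the 10 V1R neighbours 0 were lower (median -0.049). In AP-2εCre cKO libraries 4 of 10 V1R neighbours were higher at an unadjusted p under 0.05 (4.18% of all genes) and 0 of 10 had a log2 fold change below 0 (median 0.32). Of the V2R neighbours 1 was higher and 4 were lower (median -0.30). In OMPCre cKO libraries, where Fpr-rs3 had a log2 fold change of 0.13, 3 of 10 V1R neighbours were higher at an unadjusted p under 0.05 (3.95% of all genes in either direction) and 2 of 10 had a log2 fold change below 0 (median 0.24), while of the 22 V2R neighbours 2 were higher, 0 were lower and 7 had a log2 fold change below 0 (median 0.13).

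The genes whose levels over the 18 libraries were most like each member's were ranked by Pearson's r of log2(CPM + 1), which is given as a description since the libraries share depth and groups. For Fpr3 these were Cacnb4 (r = 0.92), Rab3c (0.89) and the V2R genes Vmn2r23 (0.89), Vmn2r104 (0.87) and Vmn2r100 (0.86), of which the last 2 are also on chromosome 17. For Fpr-rs3 they were Katnal1 (0.87), the V1R genes Vmn1r217 (0.82) and Vmn1r84 (0.82), 4930550C14Rik (0.80) and Rtp1 (0.78), which encodes a transporter of chemosensory receptors to the cell surface. For Fpr1 they were Pparg (0.78), Chil3 (0.76), Ifitm6 (0.75), Pik3cg (0.75) and Mmp8 (0.74), and for Fpr2 Pspc1 (0.80), Clec5a (0.79), Tifab (0.78), Pilra (0.77) and Mmp8 (0.77). Mmp8, a collagenase of neutrophils and one of the 14 listed neutrophil markers, was among the 5 genes most like each of them. Those of Fpr-rs4, Fpr-rs6 and Fpr-rs7, which rest on few counts, held 1 V1R gene, Vmn1r13 (0.78, beside Fpr-rs4). Among the members themselves r was highest between Fpr1 and Fpr2 (0.52) and between Fpr-rs3 and Fpr-rs6 (0.47), and it was -0.20 between Fpr-rs3 and Fpr3, the most abundant receptors of the 2 layers.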

How the data were processed

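Polyadenylated RNA of the whole VNO was sequenced by the authors as stranded single-end reads of 75 bases. The deposited tables give, for each of 116248 GENCODE M21 transcripts of GRCm38, the estimated count and the TPM that the authors obtained with Salmon 0.14.0. The paper describes a coding assembly, whereas many of the transcripts used include untranslated regions. DESeq2 1.22.2 is the test named in the submitters' notes. Estimated counts were summed per gene (176 transcripts, at most 0.0324% of counts, matched no gene of the annotation) and rounded. Samples were grouped by the labels into 6 groups of 3. The 1 library with conflicting labels stayed out, except in an alternative fit that added it to the AP-2εCre hets. Per comparison, genes passing filterByExpr were tested with edgeR 4.0.16 (R 4.3.3), TMM scaling and the quasi-likelihood test, in its 2 groups of libraries or, for the interaction, all 18. Genes with a Benjamini-Hochberg adjusted p under 0.05 were called. Single values were compared by exact permutation over libraries. P-values measure the spread between these animals. Alternatives were DESeq2 1.42.0, other filters and scalings, each kind of control alone, library series, replicate block, all 18 libraries in 1 fit, and leaving out each library. The coding sequences were read from GRCm38 and aligned with MAFFT 7.526. Scripts were tested on simulated data. The members and gene lists were chosen with earlier results of these data known, and the named genes are the 7 members, listed markers and the 5 genes most like each member.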

Additional observations from a re-analysis of the deposited data

Results flagged for a closer look

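Of 14 checks for a single library far from the rest of its line's 6 controls, 1 found such a library, where chance gives about 1 in 20. Fpr-rs7 had 1.298 CPM in OMPCre het replicate 1, and the next control of that line had 0.628 CPM, so that the gap took up 0.633 of the whole range. Fpr-rs6 had 0.563 CPM in this library, and the sum of both, 1.86 CPM, was also the highest of the line's controls.

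The library with conflicting labels, which carries a title of an AP-2εCre het and a genotype of a cKO, lay above all 6 controls of the AP-2εCre line for 2 receptors. Fpr-rs6 had 1.434 CPM against at most 1.34 CPM in those controls, and Fpr-rs7 had 0.916 CPM against at most 0.910 CPM. Fpr2 lay below all 6, with 0.418 CPM against at least 0.459 CPM. This library was scaled among all 19 libraries and the controls among 18. The narrow gap of Fpr-rs7 therefore carries no weight. The difference from the controls could not be tested with 1 library.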

How the results depend on the processing

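The 42 log2 fold changes of the members were recomputed under 727 alternatives in all, of which 674 kept direction and side of the threshold, 52 turned direction and 1, Fpr3 in AP-2εCre hets by DESeq2, passed the threshold. With DESeq2, 1 of 7 members was thus called in AP-2εCre hets against 0 in edgeR. No member passed edgeR's threshold, so any value that turned had to belong to a fold change that did not pass it. The cause of the turns was not tested. In AP-2εCre cKO libraries against flox controls alone, the log2 fold change was 0.068 for Fpr-rs4, -0.073 for Fpr-rs7, 0.061 for Fpr1 and 0.125 for Fpr2, and against hets alone it was 0.123 for Fpr3. Fpr2 there became 0.038 with library series as a covariate and 0.057 with the conflictingly labelled library added to the hets. In OMPCre cKO libraries Fpr-rs4 was -0.12 and Fpr2 0.16 against hets alone, and Fpr-rs6 -0.013 against flox controls alone. With Fpr-rs6 and Fpr-rs7 summed, the value was -0.10 in OMPCre cKO and AP-2εCre hets and 0.061 in OMPCre hets. Fpr1 in AP-2εCre hets was -0.052 with library series.

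With the replicate number as a block, 0 of 7 members were called in each of the 6 comparisons, and Fpr1 was 0.039 and Fpr2 0.055 in AP-2εCre cKO, Fpr1 -0.041 in AP-2εCre hets and Fpr-rs4 -0.0079 in OMPCre cKO. The mean r of deviations was -0.050 for same-numbered and 0.025 for other pairs of the AP-2εCre line, and 0.11 and -0.056 in the OMPCre line. Since not every same-numbered pair was above 0.1 (lowest -0.18 and -0.034), the numbers were not taken to pair animals. By series, AP-2εCre pairs within the second had r of 0.085 to 0.21 and those within the first -0.16 to 0.14. Pairs across series had -0.18 to 0.096. In the OMPCre line these ranges were 0.098 to 0.29, -0.11 to 0.22 and -0.27 to 0.12. The main fits held no term for series. Over all genes the block gave 2, 0, 5, 2, 0 and 18 calls where edgeR without it gave 7, 0, 4, 8, 0 and 17, for AP-2εCre cKO, OMPCre cKO, AP-2εCre hets, OMPCre hets, the interaction and the control lines, and DESeq2 gave 309, 42, 168, 159, 16 and 97. Without 1 library edgeR gave 2 to 8 calls in AP-2εCre cKO, 0 to 2 in OMPCre cKO, 3 to 28 in AP-2εCre hets (highest without het 2), 0 to 15 in OMPCre hets (lowest without het 3, highest without flox 3), 0 to 1 for the interaction and 13 to 25 between the control lines. The counts moved by over 1.5 times without any single het of the AP-2εCre het comparison, any library of the OMPCre het comparison, and each AP-2εCre cKO, flox and het library but cKO 2, flox 1 and het 1 in AP-2εCre cKO. The 2 calls in OMPCre cKO came without flox 2, and the interaction had 1 call without OMPCre flox 1 or cKO 1.

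Leaving out 1 library in turn turned these values, given as lowest and highest. In AP-2εCre cKO they were -0.489 to 0.089 for Fpr1 and -0.29 to 0.16 for Fpr2. In AP-2εCre hets they were -0.046 to 0.37 for Fpr-rs6, -0.049 to 0.83 for Fpr1 and -0.079 to 0.89 for Fpr2. In OMPCre cKO they were -0.17 to 0.22 for Fpr-rs4, -0.091 to 0.41 for Fpr-rs6 and -0.11 to 0.34 for Fpr3, the last turning without cKO 3. In OMPCre hets they were -0.23 to 0.88 for Fpr-rs7 and -0.67 to 0.045 for Fpr1. Between control lines they were -0.027 to 0.085 for Fpr-rs3, -0.19 to 0.039 for Fpr-rs4, -0.60 to 0.080 for Fpr-rs7 and -0.086 to 0.32 for Fpr1.

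For the order of levels, 3 of 6 pairs passed with 12 controls and 0 with the 6 flox controls alone, where the smallest possible exact p is 0.031 before adjustment over 6 pairs, so that this count says nothing about stability. The difference of Fpr2 and Fpr-rs6 was -0.15 in CPM per kilobase and -0.064 to 0.27 without 1 library, and that of Fpr-rs6 and Fpr-rs4 -0.071 to 0.12. Depth limits Fpr1, Fpr2, Fpr-rs4, Fpr-rs6 and Fpr-rs7, with medians of 27.7 to 69.1 counts per library.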

Other observations

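The library with conflicting labels held 49415894 estimated counts. It had 6.38 CPM of Fpr-rs3, 2.67 CPM of Fpr3, 0.936 CPM of Fpr-rs4, 0.857 CPM of Fpr1 and 0.418 CPM of Fpr2. Its Fpr3 lay at the upper end of the range of the AP-2εCre libraries that carry Cre, 1.31 to 2.68 CPM. Its Fpr-rs3 lay within the range of the controls of that line, 4.75 to 6.51 CPM. Both ranges come from the scaling of 18 libraries. The pseudogene Fpr-rs5, between Fpr3 and Fpr-rs4, had 0 counts in 14 of the 18 grouped libraries and at most 4 counts in the others.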
